A study of Mus musculus with 19 samples.

Results

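The genes described here are the ubiquitin conjugating enzymes of the Ube2 family, the ubiquitin specific proteases of the Usp family and the ubiquitin carboxyl-terminal hydrolases Uchl1, Uchl3 and Uchl5. They were chosen by a rule on names, set with earlier results of these data known. It takes every gene whose symbol begins with Ube2, or with Usp and a digit, and the 3 Uchl genes listed, leaving out Usp9y. Of 18193 genes with a probe set that names 1 symbol, 85 met the rule: 33 Ube2 genes, 50 Usp genes and 2 Uchl genes, read by 211 probe sets. The name does not always tell the function. Usp6nl, despite its symbol, is a GTPase-activating protein for Rab proteins and not a protease, Usp46os2 is an opposite-strand transcript, Ube2cbp is an E2-binding protein, and RefSeq lists Ube2d-ps as a non-coding RNA. Uchl3 and Ube2l3 had only probe sets that name several symbols and have no value here.

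RNA was measured in dendrites cut by glass pipette from cultured mouse hippocampal neurons, on 19 Affymetrix mouse expression arrays. Of these, 5 arrays came from Balb/c and 14 from C57BL/6, with no transgene or treatment named for either strain. The neurons were described as pyramidal, were taken from E18 embryos and had been kept in primary culture for 14 days. Each array read 1 pool of 100, 200 or 400 dendrites: the Balb/c pools were 2, 1 and 2 at these sizes, and the C57BL/6 pools 4, 5 and 5. A pool joins processes of many cells, RNA was amplified in several rounds before labelling, and a thin neurite may be an axon. The labels call the pools of a group biological replicates without saying whether they came from separate cultures or animals, so the p-values below measure only the spread between pools. In such pools, fewer dendrites that carry an RNA and less of it per dendrite cannot be told apart.

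Ubiquitin is passed from an activating enzyme (E1) to a conjugating enzyme (E2) and, with the help of a ligase (E3), onto a target protein. Chains of ubiquitin joined through different lysines send proteins to the proteasome, direct receptors through endosomes or build signalling platforms. Deubiquitinating enzymes such as the USP and UCH families take ubiquitin off again and recover it from chains. At synapses this exchange is known to set the turnover of scaffold proteins and the fate of internalised glutamate receptors.

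The values are log2 signals, so that 1 unit is a doubling, and the value of a gene is the median of its probe sets. Array medians lay between 6.62 and 6.95. The arrays fall into 2 number formats: 9 columns hold values with up to 14 decimals (all 5 Balb/c arrays and 4 C57BL/6 arrays) and 10 hold up to 9 decimals, all C57BL/6. No source names what lies behind the formats, and whether they mark a technical batch is not known. The strain tests below hold no term for the format, except where it is named as a block. In Balb/c the middle gene stood 0.22 above its level in C57BL/6. Every strain difference below is therefore Balb/c minus C57BL/6 relative to that gene. The tests and their p-values used the values as deposited, before this offset was removed. A member called higher was thus tested at a larger difference than the one printed, such as Usp20 at 0.75 and not 0.53. A member called lower was tested at a smaller one. Of 11 measured neuron markers, 6 in Balb/c and 8 in C57BL/6 had means above the array median, and the list's mean ranged from 7.41 to 8.73 in Balb/c pools and from 7.90 to 8.61 in C57BL/6 pools. The mean of 10 microglial markers ran from 6.85 to 7.08 in Balb/c pools and from 5.82 to 6.88 in C57BL/6 pools, and that of 8 astrocyte markers from 6.15 to 7.87 in Balb/c and from 6.54 to 7.76 in C57BL/6. The mean of 5 endothelial markers ran from 6.14 to 8.10 in Balb/c and from 6.63 to 7.41 in C57BL/6, that of 9 oligodendrocyte markers from 6.34 to 6.99 in Balb/c and from 6.25 to 6.62 in C57BL/6, and that of 7 interneuron markers from 7.27 to 7.57 in Balb/c and from 7.28 to 8.47 in C57BL/6. The part of other cells in the differences below was not tested.

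The mean levels of the members over the 19 arrays ran from 4.37 to 9.93. Ranked by the median in each strain, 3 members in C57BL/6 and 2 in Balb/c were in the top decile of all genes. Signals of different probe sets are not comparable as amounts of RNA, so their order only says which genes stood above the middle of an array. The median member averaged 7.0 over the 19 arrays, against 6.86 for the median gene, and 12 members were above the array median on all 19 arrays while 7 were so on none. Usp39, a splicing factor that kept the USP fold but lacks protease activity, had 9.81, 9.40, 10.45, 10.17 and 10.24 in the Balb/c arrays (100-1, 100-2, 200-1, 400-1 and 400-2, the order used throughout) and 9.26 to 10.78, with a median of 9.85, in the C57BL/6 arrays. It was the member with the highest mean and varied little. Usp21, a deubiquitinase of histone H2A, came next and varied widely: it had 9.59, 7.37, 10.66, 9.31 and 10.92 in Balb/c arrays and 6.24 to 11.18 in C57BL/6 arrays, with a median of 10.11. Its low arrays were Balb/c 100-2 and C57BL/6 200-2, 200-3 and 200-4. The next in order were Usp14, Usp46os2, Ube2ql1 and Ube2r2, an SCF ligase partner, with means over all arrays of 9.02, 8.90, 8.80 and 8.75. The lowest means were those of Usp38, Ube2d2b and Ube2q2. Uchl1, which is known as one of the most plentiful proteins of neurons, was not among the highest here: its single probe set read 7.01, 5.83, 6.03, 6.33 and 6.79 in Balb/c arrays and 5.67 to 7.64, with a median of 6.48, in C57BL/6 arrays.

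The comparison of strains asks which of these enzymes differ in dendritic RNA signal between Balb/c and C57BL/6. The authors caution that the array was designed on C57BL/6, so SNPs or indels may influence Balb/c values. They counted similar numbers of SNPs in the genes that differed most and least between the strains. Whether probes of these members cover such sites was not tested here. Of the 85 members, 29 (34.1%) had an adjusted p under 0.05 in limma, where 32.5% of all genes did. In Balb/c, 18 members (21.2%) were higher, against 21.1% of all genes, and 11 (12.9%) were lower, against 11.4%. These shares are near the background, and the families as a whole did not stand out. The median member differed by -0.09, with quartiles of -0.73 and 0.43, where the quartiles over all genes were -0.55 and 0.47. Of 33 Ube2 genes, 5 were higher and 7 lower, with a median of -0.26, and of 50 Usp genes 13 were higher and 4 lower, with a median of 0.09. Neither measured Uchl gene passed.

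**Figure D1:**
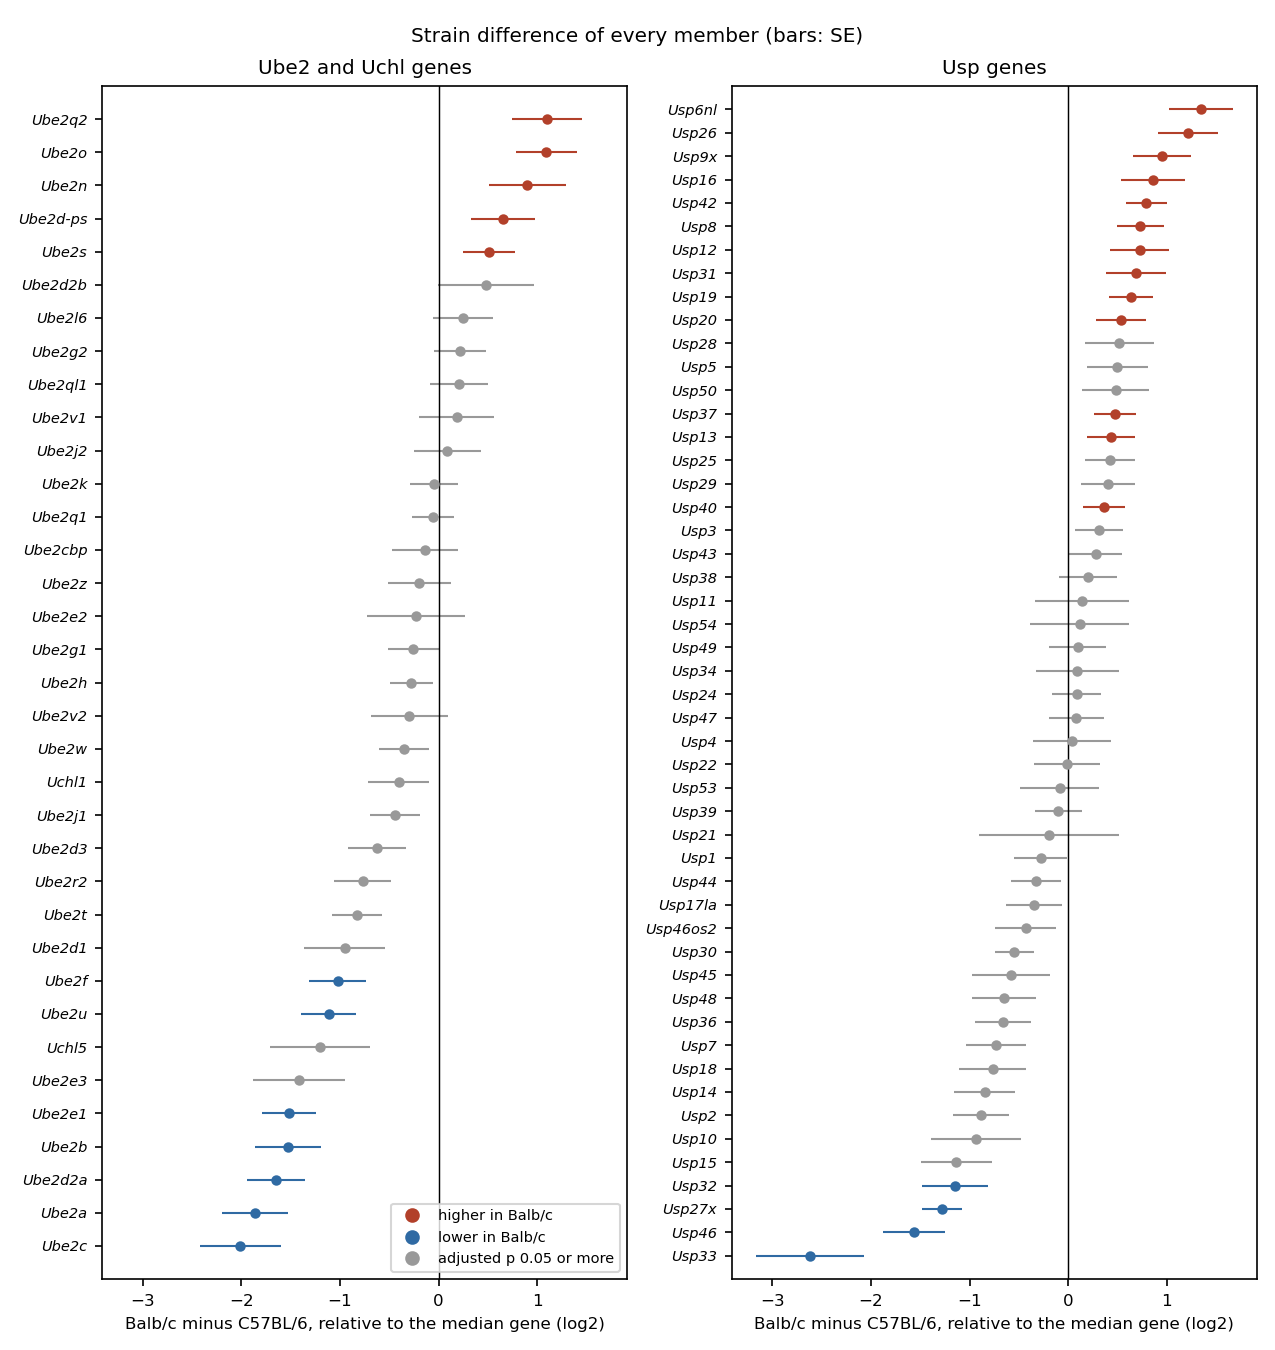
Strain difference of all 85 members (Balb/c minus C57BL/6 relative to the median gene, log2; points are estimates and bars SE), with Ube2 and Uchl genes in the left panel and Usp genes in the right. The 11 members lower in Balb/c reach from -1.02 to -2.62, while the 18 higher ones lie between 0.37 and 1.35.

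How many were called depended on a few arrays. Without Balb/c 100-2 the count was 19 (24.4% of all genes were called then), 11 of them higher (15.3%), and without Balb/c 400-1 the higher ones were also 11 (13.9%, where 22.5% of all genes were called in either direction). Of the 29 members, 16 passed whichever single array was left out. The 13 that did not were Ube2d-ps, Ube2f, Ube2n, Ube2s, Ube2u, Usp12, Usp13, Usp16, Usp20, Usp31, Usp32, Usp37 and Usp40. Without both arrays with the fewest distinct values (Balb/c 100-2 and 400-1) 10 passed, 5 in each direction, where 11.3% of all genes did. They were Ube2b, Ube2c, Ube2e1, Usp27x and Usp33, which were lower, and Ube2o, Usp6nl, Usp26, Usp31 and Usp42, which were higher. Over all 19 arrays, though, Usp31 did not pass in limma after quantile normalisation (adjusted p 0.0584) or range scaling (adjusted p 0.0666). Nor did Usp31 pass with a variance per strain (adjusted p 0.0625). Pools of 100 dendrites alone gave 10 members (11.5% of all genes) and pools of 400 alone 15 (17%). With a variance per strain 20 passed (23.7% of all genes), 11 higher (15%) and 9 lower (8.72%), and of the 47 members among genes above the median gene 18 (38.3%) did, where 37.3% of those genes did. At an adjusted p under 0.001 only Usp27x passed, with 3.85% of all genes. With the number format as a block, 2 of the 29 passed, where 1.92% of all genes did: Usp42 was higher, as were 0.649% of all genes, and Usp27x lower, as were 1.28%. Within the 9 arrays of the long format none passed in limma, and 9 members had an unadjusted p under 0.05, where 13% of all genes did. All 29 kept their direction there, but 26 (89.7%, and 82.8% of all called genes) were smaller, with a median of 0.677 of the full difference. The block fit gives this same difference for each gene, because all Balb/c arrays are of the long format.

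Among the E2 enzymes, the largest differences were downward and included a pair of paralogs. Ube2a and Ube2b are the mammalian forms of yeast Rad6, which ubiquitinate histone H2B and the replication clamp PCNA. Ube2a had 5.33, 4.57, 6.64, 4.67 and 5.38 in Balb/c arrays and 5.92 to 8.0, with a median of 6.92, in C57BL/6 arrays. Ube2b had 5.95, 5.83, 6.56, 6.45 and 5.49 in Balb/c arrays and 5.77 to 8.87, with a median of 7.39, in C57BL/6 arrays. The strains overlapped through 1 array for each gene, Balb/c 200-1 for Ube2a and C57BL/6 200-1 for Ube2b. Ube2a differed by -1.86 ± 0.34 (SE; adjusted p 0.00137) and Ube2b by -1.53 ± 0.33 (adjusted p 0.00537). Taken singly, both probe sets of Ube2a and the 2 brighter of 4 of Ube2b were lower. Without Balb/c 100-2 and 400-1, Ube2a differed by -1.37 and no longer passed (adjusted p 0.0539).

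Ube2c, which starts ubiquitin chains for the anaphase promoting complex, was lower and read by 1 probe set. It had 6.08, 6.90, 4.88, 6.71 and 6.79 in Balb/c arrays and 6.11 to 8.90, with a median of 8.32, in C57BL/6 arrays. Only C57BL/6 200-1 (6.25) and 400-1 (6.11) lay among the Balb/c values, and the other 12 C57BL/6 arrays were at 7.77 or above. The difference was -2.01 ± 0.41 (SE; adjusted p 0.00293). Its partner Ube2s, which extends those chains, was higher by 0.51 ± 0.27 (adjusted p 0.0394) and did not pass in 10 of the 19 fits that left out 1 array, nor after quantile normalisation (adjusted p 0.131). Subunits of the complex itself moved in both directions: Anapc1, Anapc4 and Anapc5 were lower, at -1.0, -2.66 and -1.90, and Anapc7 was higher by 1.04. Anapc5 was -0.54 without ambiguous probe sets, where it did not pass (adjusted p 0.439). The other 8 listed subunits and activators (Anapc2, Anapc10, Anapc11, Cdc16, Cdc20, Cdc23, Cdc27 and Fzr1) did not pass.

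The Ube2d and Ube2e enzymes work with many RING ligases. Of the 8 members listed with them, Ube2w included, 2 were lower and none higher (25%, under the 32.5% of all genes). Ube2d2a had 6.76, 5.99, 7.72, 5.96 and 6.39 in Balb/c arrays and 7.07 to 8.91, with a median of 8.07, in C57BL/6 arrays, where only Balb/c 200-1 overlapped. The difference was -1.64 ± 0.29 (SE; adjusted p 0.00138). Its probe sets were not alike: 3 of 5 were lower, at -2.81, -2.22 and -1.45, and the 2 dimmest did not pass, at -0.02 and 0.76. Without ambiguous probe sets it was -0.65 (adjusted p 0.198), and without Balb/c 100-2 and 400-1 it was -1.22 (adjusted p 0.0524). Ube2e1 had 8.42, 7.36, 7.62, 7.56 and 7.28 in Balb/c arrays and 7.45 to 9.58, with a median of 8.98, in C57BL/6 arrays, and every C57BL/6 array but 200-1 was above every Balb/c array. It differed by -1.52 ± 0.27 (adjusted p 0.00165), but its 2 probe sets were called in opposite directions, at -3.95 and 0.85.

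Other E2 enzymes moved in both directions. Ube2f, an E2 of the ubiquitin-like protein NEDD8, was lower, at -1.02 (adjusted p 0.0361), but differed by -0.07 in its probe set with the highest mean (adjusted p 0.828) and did not pass in 6 of the 19 fits that left out 1 array, those without Balb/c 100-1, 100-2, 400-1 and 400-2 and C57BL/6 100-3 and 400-2. Also lower were both chains of the NEDD8 E1, Nae1 at -2.14 ± 0.31 (SE; adjusted p 0.000269) and Uba3 at -1.70 ± 0.38 (adjusted p 0.0057). Uba3 differed by -0.08 in its probe set with the highest mean, and did not pass there (adjusted p 0.718). Ube2u was lower, at -1.11 (adjusted p 0.0178), and did not pass without Balb/c 100-2 (adjusted p 0.0512), 200-1 (adjusted p 0.0529) or 400-1 (adjusted p 0.0767). Ube2o, a large enzyme that joins E2 and E3 activity, had 7.54, 7.75, 7.61, 7.22 and 7.61 in Balb/c arrays and 5.07 to 8.03, with a median of 6.16, in C57BL/6 arrays, and was higher by 1.09 ± 0.31 (adjusted p 0.00333). A single C57BL/6 array, 400-1, overlapped. Ube2q2 was higher by 1.10 ± 0.35 (adjusted p 0.00775), with 4.5 in Balb/c 100-1 and 5.52 to 6.71 in the other Balb/c arrays, against 3.72 to 5.66 in C57BL/6 arrays. Without Balb/c 100-2 and 400-1 it was 0.65 and did not pass (adjusted p 0.167).

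Ube2n, the E2 that builds lysine-63 chains with Ube2v1 or Ube2v2, passed as higher on widely spread Balb/c values. It had 8.56, 10.23, 6.66, 9.35 and 7.99 in Balb/c arrays and 6.84 to 8.38, with a median of 7.51, in C57BL/6 arrays. The Balb/c values spread on both sides of the C57BL/6 range. The difference was 0.90 ± 0.39 (SE; adjusted p 0.0318), 0.49 without Balb/c 100-2 (adjusted p 0.165), 0.92 without Balb/c 100-1 (adjusted p 0.0555) and 0.72 without Balb/c 400-1 (adjusted p 0.114). After range scaling Ube2n did not pass (adjusted p 0.0551), while after quantile normalisation it did (adjusted p 0.0464). Its partners Ube2v1 and Ube2v2 did not pass. The same was true of all 6 members listed for lysine-48 chains and degradation at the endoplasmic reticulum.

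**Figure D2:**
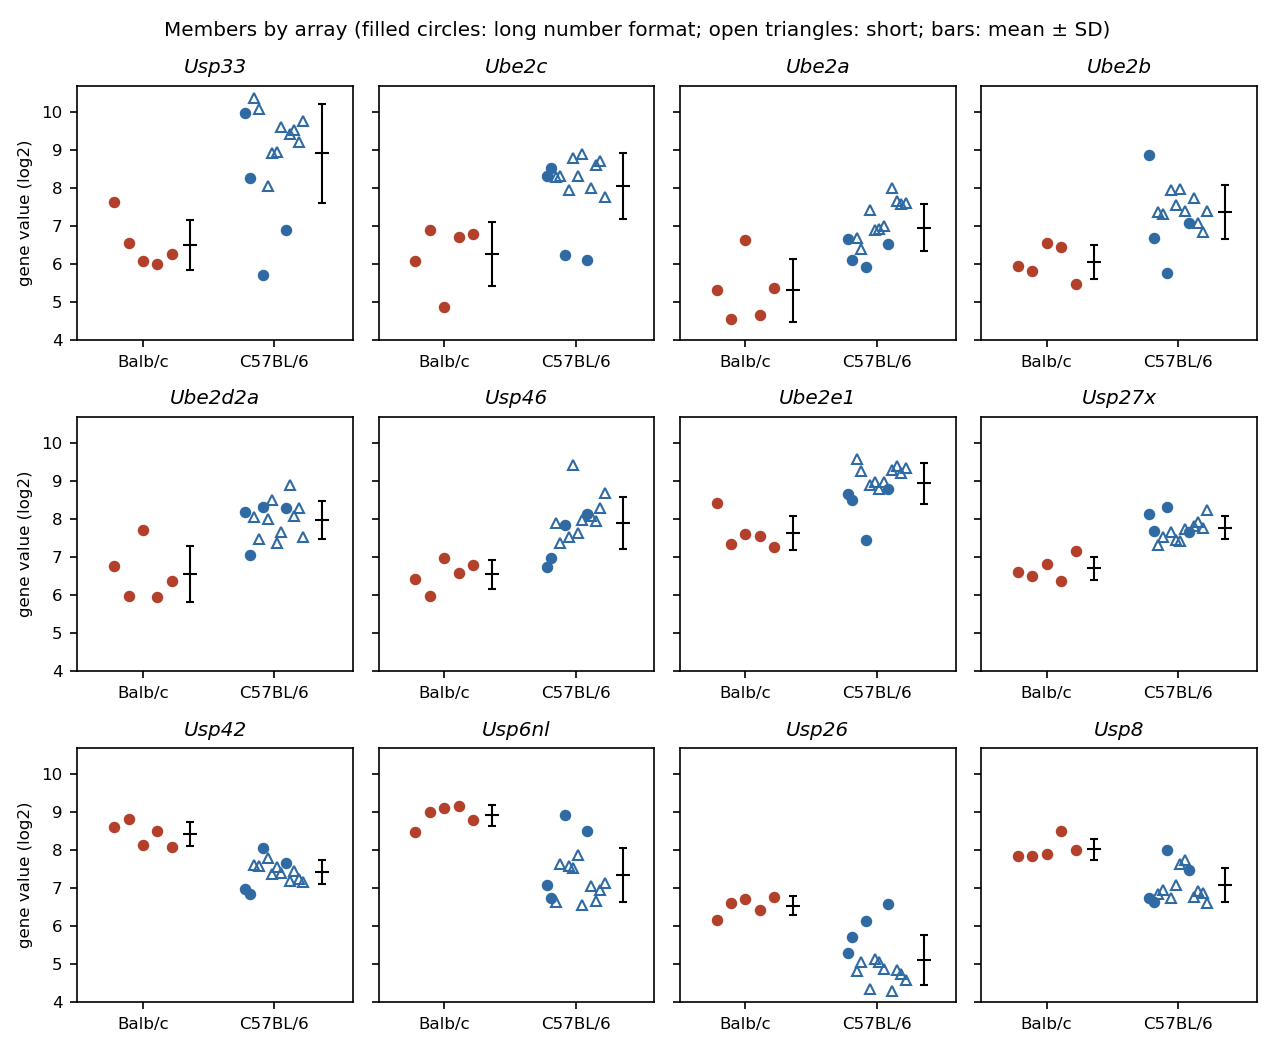
Gene values (log2) of 12 members by array, Balb/c on the left of each panel and C57BL/6 on the right, with pools ordered by size. Filled circles are arrays of the long number format and open triangles those of the short, and bars are mean ± SD. In Usp33, Ube2c and Usp6nl, C57BL/6 200-1 and 400-1 lie among or beside the Balb/c arrays. Usp27x and Usp42 separate the strains in all arrays as deposited, Usp42 by 8.08 against 8.07.

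Of 6 USP enzymes listed for receptor and endosome traffic, 3 were higher and 1 lower, a short list chosen with earlier results known and given beside the 21.1% and 11.4% of all genes. Usp6nl, which stands on the list by its symbol, was higher too. The lower one, Usp33, had the largest difference of any member. It deubiquitinates beta-adrenergic receptors and the axon guidance receptor Robo1. Usp33 had 7.63, 6.56, 6.09, 6.02 and 6.28 in Balb/c arrays and 5.73 to 10.39, with a median of 9.33, in C57BL/6 arrays. C57BL/6 200-1 (5.73) lay below and 400-1 (6.90) within the Balb/c range, and the other 12 were at 8.06 or above. The difference was -2.62 ± 0.55 (SE; adjusted p 0.00287), with 1 probe set. In C57BL/6 arrays of the long format Usp33 averaged 7.72, against 9.40 in those of the short format, and within the long format the strains differed by -1.34.

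The 3 higher enzymes were Usp8, Usp9x and Usp20. Usp8, which acts on cargo and ESCRT proteins at endosomes, had 7.86, 7.85, 7.91, 8.51 and 8.01 in Balb/c arrays and 6.62 to 8.0, with a median of 6.90, in C57BL/6 arrays, and was higher by 0.73 ± 0.24 (SE; adjusted p 0.00532). Only C57BL/6 200-1 reached the Balb/c values. Without Balb/c 100-2 and 400-1 it did not pass (adjusted p 0.0607). Of its 2 probe sets the brighter was called, at 1.43, and the other, at -0.04, was not. Usp9x, an X-linked enzyme with roles in neuronal growth and in guarding proteins from the proteasome, had 6.41, 8.51, 6.88, 7.22 and 6.32 in Balb/c arrays and 5.23 to 6.44 in C57BL/6 arrays. It was higher by 0.95 ± 0.29 (adjusted p 0.00477), by 0.59 without Balb/c 100-2, and by 0.33 in its probe set with the highest mean. Without Balb/c 100-2 and 400-1 it was 0.44 and did not pass (adjusted p 0.125). Of its 7 probe sets, 1 was called, at 1.57. Usp20, a near relative of Usp33, was higher by 0.53 ± 0.26 (adjusted p 0.0282), by 0.28 in its probe set with the highest mean (adjusted p 0.144), and did not pass without Balb/c 100-1 (adjusted p 0.063) or 400-1 (adjusted p 0.0804). Nor did Usp20 pass after quantile normalisation (adjusted p 0.0715) or range scaling (adjusted p 0.0771).

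Usp6nl, the Rab GTPase-activating protein that shares only its symbol, had 8.5, 9.0, 9.12, 9.18 and 8.80 in Balb/c arrays and 6.57 to 8.94, with a median of 7.13, in C57BL/6 arrays. It was the member with the largest upward difference, 1.35 ± 0.32 (SE; adjusted p 0.00139), and only C57BL/6 200-1 and 400-1 overlapped. In its brightest of 3 probe sets the difference was 0.57 and did not pass (adjusted p 0.0738).

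The enzymes that depend on the partner protein Wdr48 split. Usp46, known to deubiquitinate AMPA-type glutamate receptors, had 6.43, 5.98, 6.99, 6.58 and 6.80 in Balb/c arrays and 6.74 to 9.44, with a median of 7.93, in C57BL/6 arrays. The overlap came from C57BL/6 100-1 and 100-2. Usp46 differed by -1.56 ± 0.32 (SE; adjusted p 0.00339) and was lower in both of its probe sets. Without Balb/c 100-2 and 400-1 it differed by -1.36 and did not pass (adjusted p 0.0562). Its close paralog Usp12 was higher by 0.72 ± 0.30 (adjusted p 0.0204), though not without Balb/c 400-1 (adjusted p 0.0694) or 400-2 (adjusted p 0.0866). After range scaling Usp12 did not pass (adjusted p 0.0574), while after quantile normalisation it did (adjusted p 0.047). Wdr48 itself was higher by 0.64 ± 0.20 (adjusted p 0.00327), and Usp1, which also binds Wdr48, did not pass. Usp46os2, the opposite-strand transcript at Usp46, differed by -0.43 and did not pass.

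Because array offsets cancel within an array, paralogs were also set against each other as differences between 2 genes on 1 array. The 18 pairs were listed after the strain results were known, so these values carry no test. Usp12 minus Usp46 averaged -0.16 ± 0.50 in Balb/c arrays, between -0.66 and 0.46, and -2.44 ± 0.89 in C57BL/6 arrays, between -4.82 and -0.94 (SD, n = 5 and 14). It was the 1 pair of 18 whose strains did not overlap, and the strains differed by 2.29, or by 1.41 within the long format. Usp12 and Usp46 had already been called in opposite directions on these same arrays, so a wide difference was built in. No share over other pairs of genes was taken. Usp20 minus Usp33 averaged -0.02 ± 0.65 in Balb/c arrays and -3.17 ± 1.73 in C57BL/6 arrays, with C57BL/6 200-1 (1.08) above every Balb/c array. Ube2a minus Ube2b, by contrast, averaged -0.74 ± 0.78 in Balb/c arrays and -0.40 ± 0.76 in C57BL/6 arrays, with full overlap of the Balb/c range.

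**Figure D3:**
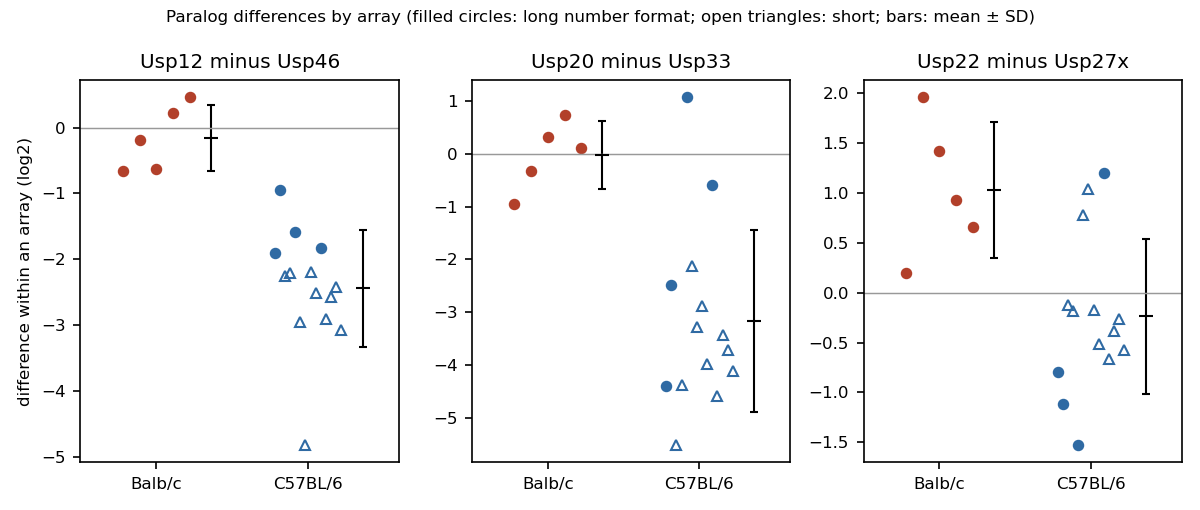
Difference between paralogs within each array (log2), Balb/c left and C57BL/6 right, with filled circles for the long number format, open triangles for the short, and bars for mean ± SD. For Usp12 minus Usp46 the lowest Balb/c array (-0.66) is above the highest C57BL/6 array (-0.94), while the other pairs overlap.

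The members whose strains did not overlap in any array were 1 higher, Usp42, where 0.797% of all genes were, and 1 lower, Usp27x, where 0.418% were. Both are listed with chromatin: Usp27x is a relative of Usp22 that removes ubiquitin from histone H2B, and Usp42 is a deubiquitinase linked to histone H2B and p53. Usp27x, X-linked, had 6.62, 6.52, 6.84, 6.39 and 7.18 in Balb/c arrays and 7.32 to 8.34, with a median of 7.73, in C57BL/6 arrays. It differed by -1.28 ± 0.20 (SE; adjusted p 0.000815), the smallest adjusted p of any member, and by -1.39 with the number format as a block (adjusted p 0.0233). Usp42 had 8.61, 8.84, 8.15, 8.5 and 8.08 in Balb/c arrays and 6.86 to 8.07, with a median of 7.44, in C57BL/6 arrays. It was higher by 0.79 ± 0.21 (adjusted p 0.00146) and by 0.91 with the block (adjusted p 0.0492). The gap was narrow for both. These ranges keep the 0.22 offset of the middle gene, which runs with Usp42 and against Usp27x. That offset is wider than the gap of Usp42, 8.08 in Balb/c 400-2 against 8.07 in C57BL/6 200-1. After quantile normalisation or range scaling only 1 member was apart. Each of the 2 genes rested on 1 of 2 probe sets: Usp27x differed by -2.04 in the dimmer and -0.59 in the brighter, and Usp42 by 1.41 in the dimmer and 0.10 in the brighter, the brighter probe set passing for neither.

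Of the other histone enzymes, Usp16, which acts on ubiquitinated histone H2A, was higher by 0.86 ± 0.32 (SE; adjusted p 0.0145). It was 0.73 without Balb/c 100-2 (adjusted p 0.053), 0.77 without Balb/c 400-1 (adjusted p 0.0522), 0.30 in its probe set with the highest mean (adjusted p 0.33) and 1.42 without ambiguous probe sets (adjusted p 0.0028). Usp22, the deubiquitinase of the SAGA complex, did not pass, at -0.01, while its cofactor Atxn7l3 was higher by 0.78 (adjusted p 0.0298) and did not pass without Balb/c 100-2 (adjusted p 0.106) or without Balb/c 400-1 (adjusted p 0.0914). Usp26, an X-linked gene known from testis, had 6.17, 6.62, 6.72, 6.42 and 6.78 in Balb/c arrays and 4.30 to 6.59, with a median of 4.97, in C57BL/6 arrays, and was higher by 1.21 ± 0.30 (adjusted p 0.0016). Usp26 was read by 1 probe set and stood below the array median in every array of both strains. In C57BL/6 arrays it averaged 5.94 in the long format and 4.78 in the short, and within the long format the strains differed by 0.47. By RefSeq, 5 members are on the X chromosome: Usp9x and Usp26 were higher, Ube2a and Usp27x lower, and Usp11 did not pass.

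The deubiquitinases of the proteasome did not pass in limma within the rule, while 1 outside it was lower. Usp14 had 7.87, 9.43, 8.71, 8.95 and 7.81 in Balb/c arrays and 8.08 to 10.22, with a median of 9.06, in C57BL/6 arrays, and differed by -0.85 (adjusted p 0.12). Without ambiguous probe sets it differed by -2.0 and passed (adjusted p 0.00774), and in the probe set with the highest mean by -0.45 (adjusted p 0.412). Uchl5 had 5.95, 6.53, 5.67, 6.06 and 4.80 in Balb/c arrays and 4.77 to 8.79 in C57BL/6 arrays, with a difference of -1.21 (adjusted p 0.135). It was -1.59 in the probe set with the highest mean (adjusted p 0.0274) and -0.14 with the number format as a block (adjusted p 0.994). The third proteasomal deubiquitinase, Psmd14, a metalloprotease outside the rule, differed by -4.65 ± 0.56 (SE; adjusted p 5.4e-05). Psmd14 averaged 7.62 ± 2.20 in Balb/c arrays and 12.05 ± 0.66 in C57BL/6 arrays (SD, n = 5 and 14). The SE takes 1 variance for both strains and so understates the wide Balb/c spread. Uchl1 differed by -0.40 (adjusted p 0.666), Usp7, which acts on p53 and Mdm2, by -0.73 (adjusted p 0.192), and Usp30 of the mitochondrial outer membrane by -0.55 (adjusted p 0.21). Usp7 was -2.17 in its probe set with the highest mean and passed there (adjusted p 0.0122). Usp5, which dismantles free chains, differed by 0.50 (adjusted p 0.0817), by 0.22 without Balb/c 400-1, by 0.69 without Balb/c 200-1 (adjusted p 0.0273) and by 0.75 without Balb/c 400-2 (adjusted p 0.0303).

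Beyond the members, 107 of 124 listed genes of the pathway were measured. In Balb/c 16 of them rose and 18 fell (31.8%, near the background given above). Of 5 E1 genes, 2 were higher and 2 lower. Among 20 HECT ligases 3 were higher, including Huwe1 by 0.72 (adjusted p 0.0158), and 1 was lower, Arel1 at -1.24 (adjusted p 0.00169). Huwe1 differed by 0.47 without Balb/c 400-1 and did not pass (adjusted p 0.0859), and by 0.09 in its probe set with the highest mean. Among 46 RING ligases, cullins and APC/C subunits 7 were higher and 12 lower, with the neuronal ligase Trim9 lower, at -2.84 ± 0.38 (SE; adjusted p 0.000129), and at -1.17 in its probe set with the highest mean and -1.53 without ambiguous probe sets. Among 26 deubiquitinases of other families 2 were higher and 3 lower, Eif3f at -3.29 ± 0.46 (SE; adjusted p 0.000172). Eif3f also spread widely in Balb/c arrays, at 6.41 ± 1.68, against 9.48 ± 0.62 in C57BL/6 arrays (SD, n = 5 and 14). No E2-like gene of 6 outside the rule passed in limma, where Tsg101, of the ESCRT machinery, differed by -1.16 (adjusted p 0.0527). Tsg101 passed after quantile normalisation (adjusted p 0.0354) and range scaling (adjusted p 0.032) and without Balb/c 100-2 or C57BL/6 100-2, 200-1 or 400-1, and was -0.05 with the number format as a block (adjusted p 0.916). Of 4 USP partners, 2 were higher and none lower.

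Within single genes, probe sets often moved apart. Of the 211 probe sets of members, 40 were higher and 34 lower in Balb/c (35.1%, where 32.9% of all probe sets were called). In 6 members (Ube2e1, Ube2h, Ube2j1, Ube2k, Usp7 and Usp15) probe sets were called in both directions, which is 9.52% of the 63 members with several probe sets, where 9.93% of all genes with several were. In Ube2e1, 1 probe set averaged 7.65 ± 0.96 in Balb/c and 11.35 ± 1.25 in C57BL/6, a difference of -3.95, while the other averaged 7.65 ± 1.09 in Balb/c and 6.54 ± 0.50 in C57BL/6, a difference of 0.85 (SD, n = 5 and 14). The gene value given above is the median of these 2. In Ube2h, a partner of the CTLH ligase, 1 probe set differed by -3.78 and 2 by 0.87 and 0.50. Ube2j1, of the endoplasmic reticulum, had 1 at -1.66 and 1 at 0.70. Usp7 had 3 lower, at -2.25, -1.82 and -1.55, and 2 higher, at 1.47 and 1.43.

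**Figure D4:**
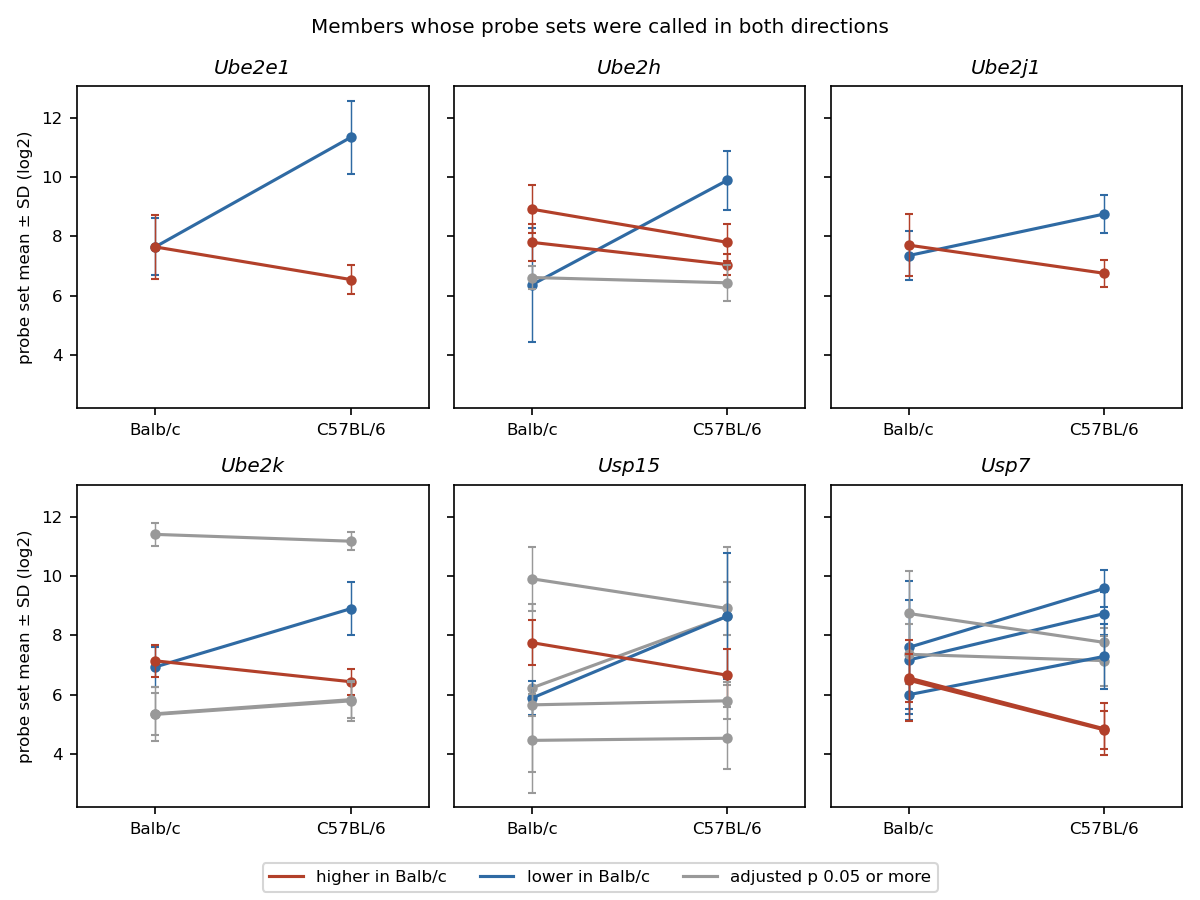
Mean ± SD (log2) of each probe set in Balb/c (left) and C57BL/6 (right) for the 6 members with probe sets called in both directions. Lines that climb to the right are lower in Balb/c, such as the Ube2e1 probe set at 7.65 in Balb/c and 11.35 in C57BL/6.

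The direction went with brightness. Member probe sets that were lower in Balb/c had a median level of 8.20, and those that were higher had 6.68. Of 58 member probe sets with a mean of 8 or more, 18 (31.0%) were lower and 6 (10.3%) higher, and of 43 with a mean under 6, 3 (6.98%) were lower and 8 (18.6%) higher. All probe sets on the arrays showed the same trend, with 24.6% lower and 13.7% higher at 8 or more, and 4.17% lower and 19.6% higher under 6. Spearman's rho between level and difference was -0.26 over the 211 member probe sets and -0.19 over all 45037, as a description of probe sets that share the same 19 arrays and whose level is part of both measures. The choice of probe set moved the balance among members: with the probe set of the highest mean for each gene, 13 members were higher (20.6% of all genes were) and 17 lower (14.1%), 34.6% of all genes being called, where the median gave 18 and 11. Scaling did the same, with 12 higher and 15 lower after quantile normalisation (15.2% and 13.9% of all genes) and 9 higher and 15 lower after range scaling (14.3% and 14.6%). The share of higher members among those called was 62.1% as deposited, 44.4% after quantile normalisation, 37.5% after range scaling and 43.3% with the brightest probe set.

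The number format moved with the strain difference in most called members. In 26 of 29 (89.7%, and 87.3% of all called genes), the 4 C57BL/6 arrays of the long format lay, in their mean, on the Balb/c side of the 10 C57BL/6 arrays of the short format. Because all Balb/c arrays are of the long format, this count nearly restates the smaller differences within the long format given above. The 2 counts are not separate observations. In 15 members every Balb/c array lay apart from every short-format C57BL/6 array, where 10% of all genes did, and 2 did so over all C57BL/6 arrays, where 1.21% of all genes did. Usp27x and Usp42 were 2 of the 3 exceptions to the first count: their C57BL/6 means were 7.96 and 7.39 in the long format and 7.70 and 7.44 in the short. The third was Ube2s.

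**Figure D5:**
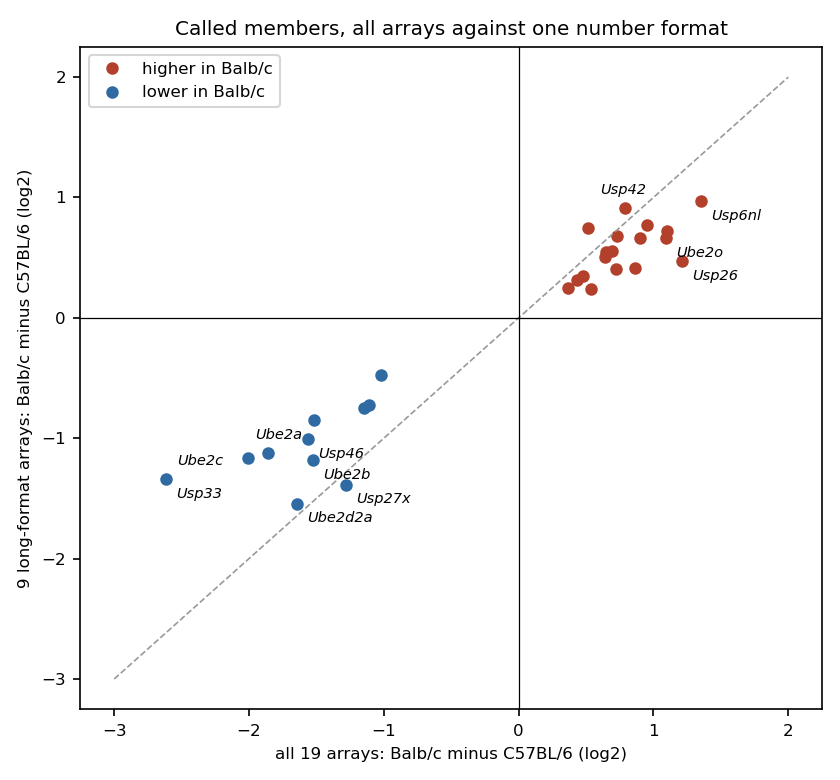
Strain difference of the 29 called members (log2, relative to the median gene) over all 19 arrays on the x axis and over the 9 arrays of the long number format on the y axis, with the dashed line marking equality. All points keep their direction, 26 lie nearer to 0 on the y axis, and Usp27x, Usp42 and Ube2s do not.

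The number of dendrites in the pool was the other variable of the design. No gene had a pool size slope with an adjusted p under 0.05 in limma, and 3 members (3.53%) had an unadjusted p under 0.05, where 4.67% of all genes did. They were Usp46 with a slope of 0.41 ± 0.15 per doubling of the pool (SE; p 0.0122 in limma), Ube2d1 with 0.46 ± 0.20 (p 0.0323) and Ube2a with 0.36 (p 0.041), and all had an adjusted p of 0.959. Usp46 averaged 6.20, 6.99 and 6.69 in Balb/c pools of 100, 200 and 400 dendrites and 7.25, 8.09 and 8.24 in the C57BL/6 pools. Ube2d1 averaged 4.77, 4.83 and 4.84 in those Balb/c pools and 5.16, 5.0 and 6.40 in the C57BL/6 pools. No gene passed the test for a slope that differs between strains, where 5 members and 690 genes (3.79%) had an unadjusted p under 0.05.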

How the data were processed

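Dendrite RNA was amplified, labelled and hybridised by the authors, and the submitters' processing notes name RMA 2.0. The deposited table holds log2 values of 45101 probe sets on 19 arrays, and these log2 values were used as deposited. The authors' methods add median centring and percentile range scaling, which was run as an alternative. Arrays give no read depth, and their number limits the precision. No probe-level detection call was used here. Probe sets were named from GEO's platform annotation: 64 control probe sets were left out, 34945 had 1 symbol and 932 several, which were not used, including 9 with a symbol of these families. Of 85 members, 84 matched RefSeq (GRCm38.p6) by gene ID.

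Probe sets of 1 gene were joined by their median. Strain, pool size and their interaction were fitted over all 18193 genes in R 4.3.3 with limma 3.58.1, using Benjamini-Hochberg adjustment, two-sided at 0.05, and the fit was tested on simulated data. The methods' t-test was an alternative. Differences are given relative to the median gene. Named were the 8 largest called differences in each direction, the 6 highest and 3 lowest members, the 3 smallest slope p-values, up to 2 genes per pathway list and a fixed set of neuronal and general enzymes. Others, and the paralog pairs, were chosen after their values were seen. The members and lists were chosen with earlier results of these data known.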

Additional observations from a re-analysis of the deposited data

Results flagged for a closer look

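In 14 of 124 groups of arrays examined for the named members (11.3%), 1 array stood apart from the rest of its group by Dixon's criterion. Over all genes it was 7.14% of such groups, and chance marks about 1 in 20. The named members share the same arrays and were mostly named for their strain differences. C57BL/6 400-1 stood apart among the pools of 400 dendrites in Usp6nl (8.5, others 6.68 to 7.15), Usp26 (6.59, others 4.30 to 4.86), Ube2o (8.03, others 5.67 to 6.35), Usp33 (6.90, others 9.23 to 9.77), Ube2a (6.54, others 7.59 to 8.0) and Ube2d1 (7.42, others 6.06 to 6.21). In all but Ube2d1 it lay on the Balb/c side. C57BL/6 200-1 stood apart among the pools of 200 dendrites in Ube2b (5.77, others 7.40 to 7.97) and Ube2e1 (7.46, others 8.80 to 8.98). The others were C57BL/6 200-5 in Usp9x (5.23, others 6.19 to 6.44), C57BL/6 200-3 in Usp46 (9.44, others 7.53 to 8.0), C57BL/6 100-2 in Ube2n (8.13, others 6.85 to 6.94) and Ube2c (8.54, others 8.30 to 8.32), C57BL/6 100-3 in Uchl5 (7.63, others 6.72 to 6.84) and Balb/c 400-1 in Usp8 (8.51, others 7.85 to 8.01). C57BL/6 200-1, C57BL/6 400-1 and Balb/c 200-1 lay between the strains, so leaving them out widens the gap by construction. Without them the strains were apart in 17 members (20%), where they were in 15.1% of all genes.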

How the results depend on the processing

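Of 29 called members, all kept their direction once the number format was a block. Under it 2 passed, 1 higher and 1 lower, and 5 pathway genes did. The block fit takes its strain difference from the long format alone, so the long-format counts are no separate check of direction. Within the long format 0 members and 0 pathway genes passed in limma, and 9 members had an unadjusted p under 0.05. Range scaling gave 9 higher members, the probe set with the highest mean 17 lower ones, and a variance per strain 11 higher ones. Genes above the median gene gave 18 called members, 8 of them higher. Without the 2 arrays with the fewest distinct values it was 10, with 5 in each direction, and 16 pathway genes. Pools of 100 dendrites alone gave 10, with 5 in each direction, and 11 pathway genes, and pools of 400 alone 15, 7 of them higher, and 18 pathway genes. The study's threshold of 0.001 left 1 member, Usp27x, 0 higher and 1 lower, and 7 pathway genes. The shares of all genes called under these settings are given above. Members with strains apart numbered 1 after quantile normalisation (1.07% of all genes), 1 after range scaling (1.08%), 1 with the brightest probe set (1.37%), 17 (20%) without the 3 arrays between the strains (15.1% of all genes), 38 (44.7%) in pools of 100, with 2 Balb/c arrays against 4 (40.3% of all genes), and 27 (31.8%) in pools of 400 (36.3%). Members above the array median on all arrays were 22 with the brightest probe set. The causes were not tested.

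Leaving out 1 array at a time gave 19 to 33 called members, 11 to 20 higher and 8 to 13 lower, and 2 to 6 with strains apart. The 19 came without Balb/c 100-2, where 24.4% of all genes were called, and no such share is given for the 33. The highest count of members with strains apart (7.06%, and 3.58% of all genes) came without C57BL/6 200-1. The single genes whose direction turned had not passed as reported. Usp39 was 0.036 with quantile normalisation, 0.18 with the brightest probe set, 0.10 without ambiguous probe sets, 0.055 for genes above the median gene and 0.076 without the 2 arrays with the fewest distinct values. Ube2r2 was 0.18 with the brightest probe set and 0.10 without ambiguous ones, Ube2ql1 -0.27 with the brightest and -0.81 in pools of 400, and Uevld, an E2-like gene outside the rule, 0.36 with the brightest. Without those 2 arrays Usp21 was 0.65 and Usp5 -0.086, and in pools of 400 Ube2d2b was -0.64 and Usp38 -0.41. Leaving out 1 array, Ube2d2b ran from -0.20 to 0.92, Usp38 from -0.026 to 0.45, Usp39 from -0.24 to 0.056, Usp21 from -0.52 to 0.36 and Ube2ql1 from -0.032 to 0.46. Of paralog differences, Usp22 minus Usp27x was -0.45 and Ube2a minus Ube2b 1.06 with the brightest probe set, Ube2a minus Ube2b 0.055 within the long format, and Ube2d2a minus Ube2d3 0.0059 without ambiguous probe sets.

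Same-numbered arrays of the strains correlated between -0.19 and 0.07 in their deviations, and no Balb/c array correlated best with its own number, so the numbers were not taken as pairs. With pool size and replicate number as a replicate block, 0 members were called in limma, 0 higher and 0 lower, and 0 pathway genes. At an unadjusted p under 0.05 it gave 14 members and 3331 genes.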
